A study of Homo sapiens with 16 samples.

Results

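Costimulatory and checkpoint ligands are surface proteins by which antigen-presenting cells raise or restrain T cell responses. CD80, CD86, CD40, CD274 (PD-L1), PDCD1LG2 (PD-L2) and ICOSLG were taken by gene symbol from a table of estimated RNA counts, and all 6 were present among its 60603 genes. Each symbol matched 1 row, and values in all 16 libraries were used.

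RNA was sequenced from 2 human acute myeloid leukaemia (AML) cell lines, SKNO-1 and U-937, after 24 h with the solvent DMSO, with all-trans retinoic acid (ATRA) at 0.1 µM, with Corin at 0.1 µM, or with both agents at 0.1 µM each. The design asks how the agents act on transcription alone and together. ATRA is a ligand of the retinoic acid receptors, and Corin is a dual inhibitor directed at the demethylase LSD1 and the class I histone deacetylases of the CoREST complex. SKNO-1 is an established line with a RUNX1-RUNX1T1 fusion and U-937 an established monocyte-like line. Each of the 8 groups had 2 libraries, and the labels do not say whether these came from separate cultures, so p-values measure only the spread between libraries, which may be technical. GM-CSF, a myeloid growth factor, was present at 10 ng/mL in the medium of all 4 SKNO-1 groups and is not listed for U-937.

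CD80 and CD86 are B7 proteins that bind CD28, which delivers the second signal for T cell activation, and CTLA4, which opposes it. ICOSLG binds ICOS on activated T cells. CD40, grouped here with the ligands, is a TNF receptor family member that binds CD40LG on helper T cells, and its signal normally raises B7 expression. CD274 and PDCD1LG2 bind PD-1 and restrain T cells. In normal myeloid cells CD86 is the B7 protein with the more constant expression, whereas CD80 and the PD-1 ligands appear mainly after stimulation by cytokines or microbial products.

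On hg38, in the positions of GENCODE release 44, CD80 lies at chr3:119524293-119559614 on the minus strand and CD86 at chr3:122055362-122121139 on the plus strand, 2.50 Mb apart. CD274 (chr9:5450503-5470566) and PDCD1LG2 (chr9:5510531-5571282) are separated by 39965 bases, both on the plus strand. CD40 lies at chr20:46118271-46129863 on the plus strand and ICOSLG at chr21:44215382-44241446 on the minus strand. Promoter windows of 300 bases from RefSeq (GRCh38.p14), 250 before and 50 after an annotated start, were present for 4 of the 6 genes. The windows below are those of CD86, the gene with the highest levels, and of CD274, whose change in U-937 was called with both agents but with neither alone; capitals mark matches to the motifs named after them.

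CD86 first start, chr3:122055112-122055411, plus strand: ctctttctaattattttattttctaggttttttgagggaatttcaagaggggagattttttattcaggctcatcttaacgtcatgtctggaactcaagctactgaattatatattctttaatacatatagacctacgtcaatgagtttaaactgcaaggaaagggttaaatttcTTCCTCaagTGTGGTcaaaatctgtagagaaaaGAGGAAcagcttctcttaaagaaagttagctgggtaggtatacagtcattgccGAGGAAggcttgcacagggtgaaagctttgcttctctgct
CD86 second start, chr3:122077534-122077833, plus strand: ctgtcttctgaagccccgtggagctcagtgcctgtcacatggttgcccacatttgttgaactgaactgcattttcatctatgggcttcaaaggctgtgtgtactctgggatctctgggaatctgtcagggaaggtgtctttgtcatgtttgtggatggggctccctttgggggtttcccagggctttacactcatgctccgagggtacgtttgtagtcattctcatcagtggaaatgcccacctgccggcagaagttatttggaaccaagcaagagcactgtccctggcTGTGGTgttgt
CD274, chr9:5450292-5450591, plus strand: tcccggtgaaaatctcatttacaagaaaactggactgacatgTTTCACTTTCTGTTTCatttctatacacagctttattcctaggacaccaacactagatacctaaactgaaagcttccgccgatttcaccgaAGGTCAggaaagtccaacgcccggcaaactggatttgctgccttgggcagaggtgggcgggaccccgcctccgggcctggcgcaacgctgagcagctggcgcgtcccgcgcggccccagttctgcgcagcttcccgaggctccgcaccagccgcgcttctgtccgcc

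Both strands were searched for 7 motifs by their letters. The first CD86 window held the core GAGGAA of PU.1, the master factor of myeloid cells, 3 times, at 76 bases (as its reverse complement) and 43 bases before the start and 10 bases after it. It also held the RUNX motif TGTGGT once, 67 bases before the start. The second CD86 window held TGTGGT 39 bases after its start. Among 35116 RefSeq windows of this length, 27.9% held GAGGAA and 13.1% held TGTGGT. The CD274 window held 2 overlapping matches, both as reverse complements, to 2 copies of GAAA with any 2 bases between, a pair of interferon regulatory factor (IRF) sites, starting 208 and 202 bases before the start, and such a pair was in 3.57% of windows. It also held the retinoic acid receptor half-site AGGTCA 117 bases before the start, as 13.8% of windows did. No window of the 4 genes held the direct repeat of that half-site (2 copies of AGGTCA with any 5 bases between, 0.0057% of windows), the AP-1 motif TGANTCA (7.71%) or the NF-kB motif (GGGA, any base, TT, any base, CC; 1.4%), and the windows of CD80 and ICOSLG held none of the 7. These matches describe letters in a window and were not tied to any binding measured here.

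Totals were 28.4 to 37.8 M estimated counts per library. Levels are given as CPM (counts per 1000000 counts, on TMM-scaled totals), mean ± SD of 2 libraries (n = 2), and 3 counts correspond to between 0.0769 and 0.0991 CPM in these libraries. Effects are log2 fold changes with their standard error (SE) and adjusted p from edgeR's quasi-likelihood F test, adjusted over all genes of the fit, and a gene is called changed at an adjusted p under 0.05. The low-count filter left 5 of the 6 genes for testing in SKNO-1 (not PDCD1LG2) and 3 in U-937 (CD86, CD274 and ICOSLG), and the other genes are given by their counts. The 3 comparisons against DMSO within a line share its 2 DMSO libraries. The SKNO-1 DMSO pair stood further apart than the other pairs: the SD of its log2 difference was 0.362 over 9077 genes, against 0.110 to 0.210 elsewhere. That difference had a Pearson correlation of 0.789 with GC content across those genes, which are not independent. The correlation was 0.561 for the U-937 DMSO pair, -0.500 for SKNO-1 with ATRA and 0.400 for U-937 with both agents. In the other pairs it lay between -0.164 and 0.116. Of 10 myeloid genes, 9 passed 1 CPM in a library, with CD33 at 68.4 CPM or more in every library, while CD14 stayed at 0.826 CPM or less. MPO stood at 1846 CPM or more in SKNO-1 but at 0.453 CPM or less in U-937. ITGAM and CSF1R went down to 0.338 and 0.330 CPM in SKNO-1 libraries. Of 7 T cell genes, 2 passed 1 CPM in a library, CD2 up to 3.10 CPM in U-937 and CD8A up to 2.07 CPM in SKNO-1, CD3D, CD3E and CD3G stayed at 0.120 CPM or less, and the summed level was at most 3.61 CPM in SKNO-1 and 3.17 in U-937. Of 6 B cell genes, 5 passed 1 CPM in a library, among them CD79B (at 19.5 CPM or more in SKNO-1), CD22 (up to 16.5) and PAX5 (up to 10.8, in U-937), while MS4A1 was at 0. Their summed level was 25.6 to 47.2 CPM in SKNO-1 and 10.4 to 16.1 in U-937. Of 8 dendritic cell genes, 5 passed 1 CPM and XCR1 was at 0. Their summed level was 24.9 to 53.9 CPM in SKNO-1 and 20.1 to 31.5 in U-937, with CD83 at 20.0 to 37.0 CPM over both lines. The part of such cells in the results was not tested. In these bulk libraries, more cells expressing a gene and more RNA per cell cannot be told apart.

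**Figure D1:**
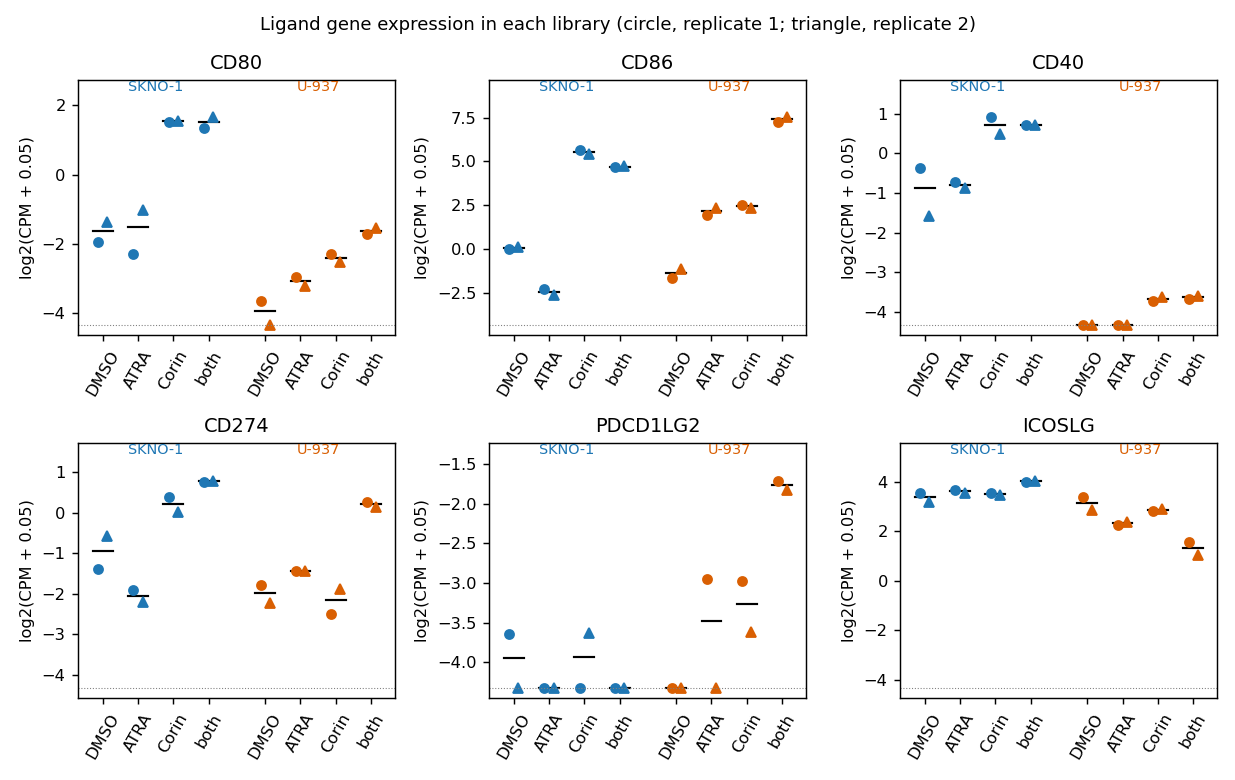
Level of each of the 6 genes as log2(CPM + 0.05) in each of the 16 libraries, by line and treatment; the bar is the group mean and the dotted line marks 0 counts. CD86 spans the widest range, from 0.111 CPM in an SKNO-1 library with ATRA to 182 CPM in a U-937 library with both agents.

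CD86 was the ligand gene with the largest changes in both lines. In SKNO-1 it fell with ATRA, rose with Corin and stayed high with both agents. In U-937 it rose with each agent and rose much further with both. Of CD86, CD274 and ICOSLG, the genes tested in both lines, CD86 was the only one called in all 6 comparisons against DMSO.

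In SKNO-1, CD86 had 32 and 37 counts with DMSO and 5 and 4 with ATRA. The Corin libraries had 1643 and 1361 counts, and those with both agents 800 and 857. No library of one group overlapped those of another. The DMSO mean was 1.00 ± 0.0589 CPM, the ATRA mean 0.132 ± 0.0303, the Corin mean 45.6 ± 5.07 and the mean with both agents 25.8 ± 0.672. Against DMSO the change was -2.86 with ATRA (SE 0.278, adjusted p = 0.000658), 7.25-fold lower. With Corin it was 5.51 (SE 0.143, adjusted p = 7.13e-07), 45.5-fold higher, and with both agents 4.73 (SE 0.142, adjusted p = 5.80e-07), 26.5-fold higher. The ATRA level rests on counts near the floor, and all 3 calls held under every alternative tried.

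ATRA added to Corin gave less CD86 than Corin alone in SKNO-1. The level was 1.71-fold lower with both agents than with Corin alone (log2 fold change -0.78, SE 0.106, adjusted p = 0.00380). This call was lost without Corin replicate 1 (-0.66, adjusted p = 0.0640), without replicate 1 of both agents (-0.76, adjusted p = 0.0639) or without replicate 2 of both agents (-0.80, adjusted p = 0.0582). Against ATRA alone, CD86 with both agents was higher by 7.59 (SE 0.192, adjusted p = 3.58e-07). Had the folds of the single agents multiplied, the level with both would have been 6.03 CPM, and the measured mean was 25.8. That departure from multiplied folds was 2.08 (SE 0.312, adjusted p = 0.0370), but the call was lost on omission of any single library among the 6 with an agent (1.91 to 2.37, adjusted p 0.125 to 0.231).

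In U-937, CD86 had 9 and 12 counts with DMSO, 143 and 172 with ATRA, 220 and 161 with Corin, and 5403 and 5504 with both agents. The libraries with both agents stood far above all others, while those of the single agents lay close together. The DMSO mean was 0.332 ± 0.0857 CPM, the ATRA mean 4.43 ± 0.872, the Corin mean 5.35 ± 0.414 and the mean with both agents 168 ± 20.1. The change against DMSO was 3.72 with ATRA (SE 0.258, adjusted p = 3.55e-11) and 4.01 with Corin (SE 0.251, adjusted p = 2.75e-11). With both it was 8.98 (SE 0.201, adjusted p = 1.30e-20), 504-fold higher, and it was 5.25 against ATRA alone (SE 0.143, adjusted p = 3.43e-18) and 4.97 against Corin alone (SE 0.141, adjusted p = 1.57e-18). CD86 then ranked 47 from the highest among the 17717 log2 fold changes of that comparison. In TPM, which is scaled to transcript length, mean CD86 was 0.195 in the DMSO pair and 55.6 in the pair given both agents. The single agents stood at 2.245 TPM for ATRA and 3.135 TPM for Corin. The rise with both agents and its excess over multiplied folds were thus smaller in TPM than in CPM, and TPM was not tested. By counts, multiplied single folds would have given 71.2 CPM, and the departure was 1.24 (SE 0.388, adjusted p = 0.0226). The departure was not called without DMSO replicate 2 (0.97, adjusted p = 0.263) or without ATRA replicate 1 (1.05, adjusted p = 0.0530).

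**Figure D2:**
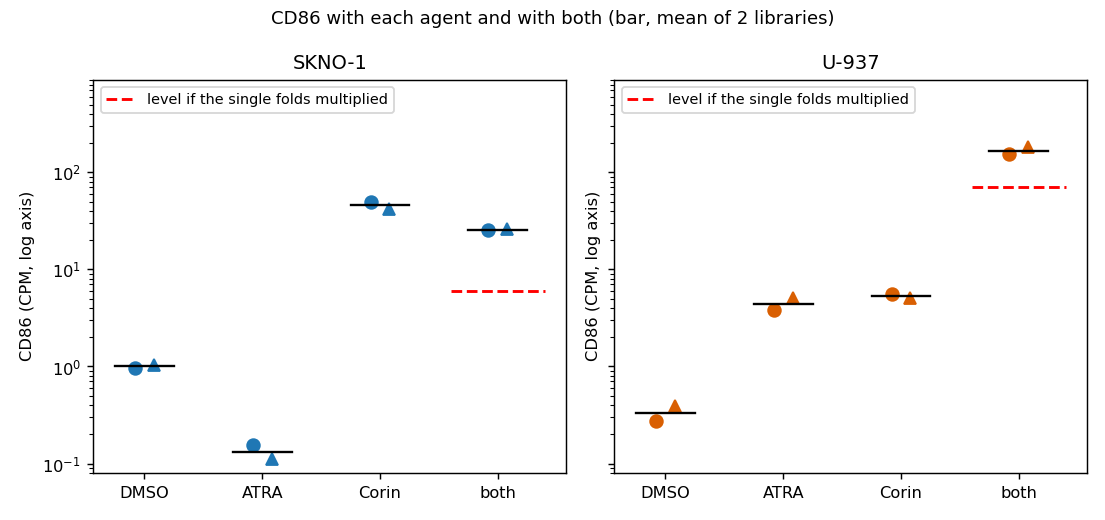
CD86 in CPM (log axis) in each library of SKNO-1 (left) and U-937 (right); circles are replicate 1, triangles replicate 2, solid bars the mean of 2 libraries and the dashed line the level if the folds of the single agents multiplied. The measured level with both agents lies above the dashed line in each line, 25.8 against 6.03 CPM in SKNO-1 and 168 against 71.2 CPM in U-937.

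The 8 group means of CD86 ran in the order U-937 with both agents, SKNO-1 with Corin, SKNO-1 with both, U-937 with Corin, U-937 with ATRA, SKNO-1 with DMSO, U-937 with DMSO and SKNO-1 with ATRA. The ranges of 2 libraries did not overlap between any neighbours in that order. The narrowest gap was in U-937, between the lower Corin library (5.06 CPM) and the higher ATRA library (5.04 CPM). The raw counts of these 2 groups overlapped, and they were not tested against each other. The authors' deposited table gives log2 fold changes for CD86 of -2.90 (adjusted p = 0.0292) with ATRA in SKNO-1 and 8.97 with both agents in U-937.

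CD80, the other ligand of CD28 and CTLA4, was called higher with Corin in SKNO-1, alone or with ATRA, and was too low in U-937 for the test. In SKNO-1 its counts were 7 and 12 with DMSO, 5 and 16 with ATRA, 94 and 94 with Corin, and 79 and 101 with both agents. The DMSO and ATRA libraries overlapped, as did those of Corin and of both. Corin raised it 10.3-fold, from 0.274 ± 0.0907 to 2.86 ± 0.0620 CPM (log2 fold change 3.36, SE 0.389, adjusted p = 0.000445). Both agents raised it 10.4-fold (3.38, SE 0.389, adjusted p = 0.000311), and the difference between both and Corin was 0.01 (95% interval -0.67 to 0.70, adjusted p = 0.980). ATRA alone gave 0.18 (95% interval -1.0 to 1.36, adjusted p = 0.917). Against ATRA alone, both agents gave 3.20 (SE 0.383, adjusted p = 0.000404). With 1 library left out this ran from 2.69 to 4.20, the highest without ATRA replicate 2. The departure from multiplied folds was -0.17 (SE 0.590, adjusted p = 0.913).

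In U-937 CD80 had 1 and 0 counts with DMSO, 3 and 2 with ATRA, 6 and 4 with Corin, and 9 and 9 with both. Summed counts were thus 1, 5, 10 and 18. The ratio to DMSO was 4.44 (exact 95% counting interval 0.497 to 210) with ATRA, 8.98 (1.28 to 390) with Corin and 17.5 (2.76 to 729) with both. CD80 overlaps TIMMDC1, on the opposite strand, over 798 bases, and the sources do not say whether counting separated the strands. TIMMDC1, a gene for mitochondrial complex I assembly, stood at 73.8 CPM in SKNO-1 DMSO and moved the other way, by -0.25 (SE 0.0814) with Corin and -0.31 (SE 0.0816) with both.

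In TPM, which is scaled to length and so compares genes, CD86 exceeded CD80 in 15 of the 16 libraries. In the U-937 libraries with both agents the ratio of CD86 to CD80 was 547 and 707. In the SKNO-1 Corin libraries it was 12.5 and 11.1. With DMSO it was 2.88 and 3.56 in SKNO-1. For CD86 itself in SKNO-1, mean TPM was 0.515 in the DMSO pair, 0.115 for ATRA, 18.3 for Corin and 8.62 for the combination. As in U-937, the rise with both agents and its excess over multiplied folds were smaller in TPM than in CPM, without a test.

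ICOSLG behaved unlike CD86: it had the highest TPM of the 6 genes with DMSO and fell with ATRA in U-937. With both agents in SKNO-1 it rose slightly in counts, while its TPM overlapped that with DMSO. Its values carry a caveat of counting. A near-identical copy of ICOSLG on the same chromosome (FP565260.3, ENSG00000277117.4, chr21:5022531-5036771), which GENCODE marks as an artifact whose real copy is ICOSLG, took 14.3% to 52.6% of the summed counts (median 31.8%). Of the 3138 stretches of 100 bases in the copy's transcript, 90.6% also occur in ICOSLG transcripts. The sum of both was a whole number within 0.011 in 15 of 16 libraries, so the authors' RSEM divided the same reads between them.

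In SKNO-1 the estimated ICOSLG counts were 392 and 320 with DMSO, 415 and 420 with ATRA, 389 and 357 with Corin, and 503 and 534 with both. After scaling, both libraries with both agents lay above both DMSO libraries, as did 1 of the 2 ATRA libraries (12.8 against 11.7 and 9.02 CPM), and the Corin libraries lay between the DMSO libraries. The level went from 10.4 ± 1.92 to 16.1 ± 0.318 CPM, a change of 0.68 (SE 0.148, adjusted p = 0.00655). With the copy's counts added it was 0.55 (adjusted p = 0.0117), and 0.39 after removal of the GC trend (adjusted p = 0.00585). ATRA alone gave 0.27 (adjusted p = 0.412) and Corin alone 0.13 (adjusted p = 0.538). Both became calls when SKNO-1 DMSO replicate 1 was left out, at 0.45 (adjusted p = 0.00775) and 0.34 (adjusted p = 0.0264). Both agents gave 0.41 against ATRA alone (SE 0.147, adjusted p = 0.0514) and 0.55 against Corin alone (SE 0.148, adjusted p = 0.0531). DESeq2 called each (adjusted p = 0.0489 and 0.0248). The departure was 0.29 (SE 0.210, adjusted p = 0.532). In TPM the libraries overlapped: ICOSLG had 2.48 and 2.02 with DMSO and 2.12 and 3.0 with both agents. With the copy added, TPM was 3.37 and 3.19 with DMSO and 2.87 and 3.97 with both.

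In U-937 the estimated counts were 342 and 221 with DMSO, 178 and 177 with ATRA, 271 and 236 with Corin, and 102 and 61.1 with both agents. The ATRA libraries and those with both agents lay below both DMSO libraries, and the Corin libraries overlapped them after scaling. ATRA gave -0.83 (SE 0.199, adjusted p = 0.00165), 1.77-fold lower, and -0.74 with the copy added (adjusted p = 0.000120). Without U-937 DMSO replicate 1 the ATRA change was -0.55 and not called (adjusted p = 0.0752). Both agents gave -1.82 (SE 0.213, adjusted p = 6.90e-08), from 8.79 ± 2.19 to 2.45 ± 0.615 CPM, and -1.74 with the copy. They gave -1.0 against ATRA alone (SE 0.217, adjusted p = 0.000513) and -1.53 against Corin alone (SE 0.214, adjusted p = 1.27e-06). Corin alone gave -0.29 (95% interval -0.69 to 0.11, adjusted p = 0.376). The departure from multiplied folds was -0.71 (adjusted p = 0.0841), or -0.81 (adjusted p = 0.00441) with the copy added.

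**Figure D3:**
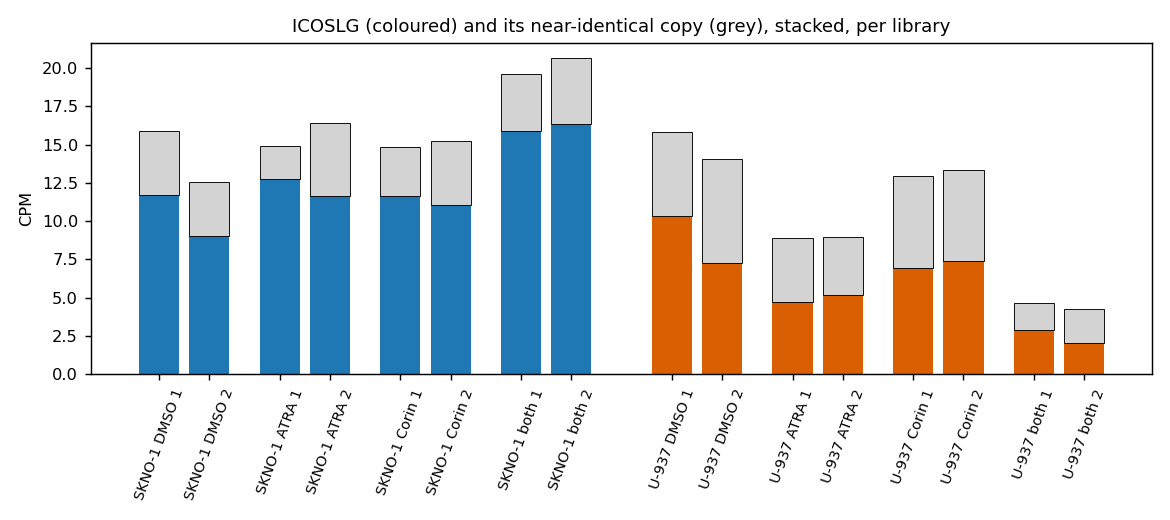
Stacked level in CPM of ICOSLG (coloured) and of its near-identical copy (grey) in each of the 16 libraries; bars start at 0. The summed level lies at 19.6 and 20.6 CPM in the SKNO-1 libraries with both agents and at 4.66 and 4.26 CPM in those of U-937.

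CD86 and ICOSLG thus changed places by level. In TPM the ratio of CD86 to ICOSLG plus its copy was 0.137 and 0.179 in the SKNO-1 DMSO libraries and 0.0412 and 0.0634 in those of U-937. It was 5.68 and 5.66 with Corin in SKNO-1, and 60.1 and 71.6 with both agents in U-937. With ATRA in SKNO-1 it was 0.0246 and 0.0456.

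CD40, the receptor for CD40LG, was low in SKNO-1 and close to absent from the U-937 counts. In SKNO-1 its counts were 24 and 10 with DMSO, 18 and 18 with ATRA, 61 and 44 with Corin, and 50 and 52 with both agents. The groups that received Corin lay above those that did not, and within each of these pairs the libraries overlapped. Corin gave 1.67 (SE 0.395, adjusted p = 0.0119), from 0.501 ± 0.309 to 1.59 ± 0.331 CPM. This was not called without Corin replicate 1 (1.44, adjusted p = 0.0839) or with the 4 compared libraries fitted alone (adjusted p = 0.0536). Omitting DMSO replicate 1 gave 2.49 (adjusted p = 7.62e-05) and omitting DMSO replicate 2 gave 1.13 (adjusted p = 0.0117). In the authors' deposited table, CD40 against DMSO is 1.64 (adjusted p = 0.0638) with Corin and 1.65 (adjusted p = 0.0498) with both agents. ATRA alone gave 0.12 (SE 0.446, adjusted p = 0.945). Both agents gave 1.71 against DMSO (SE 0.396, adjusted p = 0.00843) and 1.6 against ATRA (SE 0.393, adjusted p = 0.0116). The call against ATRA was lost when any 1 of the libraries of those 2 groups was left out (adjusted p 0.0540 to 0.0693). The change against DMSO with both agents ranged from 1.17 (DMSO replicate 2 omitted) to 2.54 (DMSO replicate 1 omitted), called in each case. Both agents against Corin gave 0.04 (SE 0.347, adjusted p = 0.950), and the departure was -0.08 (SE 0.566, adjusted p = 0.964). In U-937 CD40 had 0 counts in all libraries with DMSO or ATRA and 1 in each library with Corin or with both, which gives no fold.

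CD274, the main PD-1 ligand, rose with both agents in each line, and in U-937 neither agent alone gave a call. In SKNO-1 its counts were 11 and 22 with DMSO, 7 and 6 with ATRA, 42 and 31 with Corin, and 52 and 55 with both. In counts the ATRA libraries lay below the DMSO libraries and the others above them. In TPM, DMSO had 0.1 and 0.36, ATRA 0.15 and 0.21, Corin 0.84 and 0.35, and both agents 0.4 and 0.42. The TPM values with ATRA, and that of Corin replicate 2, thus fell within the DMSO range. Both agents gave 1.85 (SE 0.325, adjusted p = 0.00242), from 0.475 ± 0.205 to 1.66 ± 0.0284 CPM, and 3.12 against ATRA alone (SE 0.377, adjusted p = 0.000416). Corin alone gave 1.21 (SE 0.336, adjusted p = 0.0228), a call that was lost with DESeq2 (adjusted p = 0.0826), with the 4 compared libraries fitted alone (adjusted p = 0.0786) and without DMSO replicate 1 (0.84, adjusted p = 0.0790), Corin replicate 1 (1.0, adjusted p = 0.133) or Corin replicate 2 (1.40, adjusted p = 0.0516). In the authors' deposited table it is 1.19 with an adjusted p of 0.244. ATRA alone gave -1.27 (SE 0.434, adjusted p = 0.152), which was called without DMSO replicate 1 (-1.67, adjusted p = 0.0138). Both agents against Corin gave 0.63 (SE 0.295, adjusted p = 0.188), and the departure was 1.90 (SE 0.525, adjusted p = 0.199).

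In U-937 CD274 had 8 and 5 counts with DMSO, 12 and 11 with ATRA, 5 and 7 with Corin, and 41 and 32 with both agents. Only the libraries with both agents stood clearly apart in counts. In TPM these had 0.49 and 0.27, against 0.24 and 0.22 with ATRA, 0.14 and 0.24 with Corin and 0.17 and 0.12 with DMSO. Replicate 2 of both agents thus lay only a little above the single agents in TPM. By counts, both agents gave 2.43 against DMSO (SE 0.498, adjusted p = 0.000147), from 0.203 ± 0.0551 to 1.11 ± 0.0758 CPM. Against ATRA alone the change was 1.79 (SE 0.456, adjusted p = 0.00216) and against Corin alone 2.68 (SE 0.504, adjusted p = 6.24e-05). ATRA alone gave 0.64 (95% interval -0.52 to 1.82, adjusted p = 0.379) and Corin alone -0.25 (95% interval -1.55 to 1.05, adjusted p = 0.852), intervals that include sizeable changes in either direction. Multiplied single folds would have given 0.276 CPM, and the departure was 2.04 (SE 0.780, adjusted p = 0.0599).

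PDCD1LG2, the second PD-1 ligand, had at most 1 count in any SKNO-1 library. In U-937 its counts were 0 and 0 with DMSO, 3 and 0 with ATRA, 3 and 1 with Corin, and 9 and 7 with both agents. Only both libraries with both agents exceeded 3 counts. Against a floor of 3 counts over the 2 DMSO libraries this is 5.18-fold higher. That value has no interval and takes the 16 counts with both agents as exact. PDCD1LG2 was not tested with the low-count filter. Without that filter edgeR called it (adjusted p = 0.00249), and it called CD80 as well in that comparison (adjusted p = 0.00530). The authors' deposited table gives PDCD1LG2 a log2 fold change of 5.38 with an adjusted p of 0.0345 there. For CD80 it gives 4.13 with an adjusted p of 0.0889, which is not a call. CD274 and PDCD1LG2 both lie across from the antisense transcript ENSG00000286162, which held 28, 30, 6 and 10 counts in the SKNO-1 groups with DMSO, ATRA, Corin and both, and 37, 52, 33 and 47 in those of U-937. Its part in the 2 genes' counts was not tested.

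**Figure D4:**
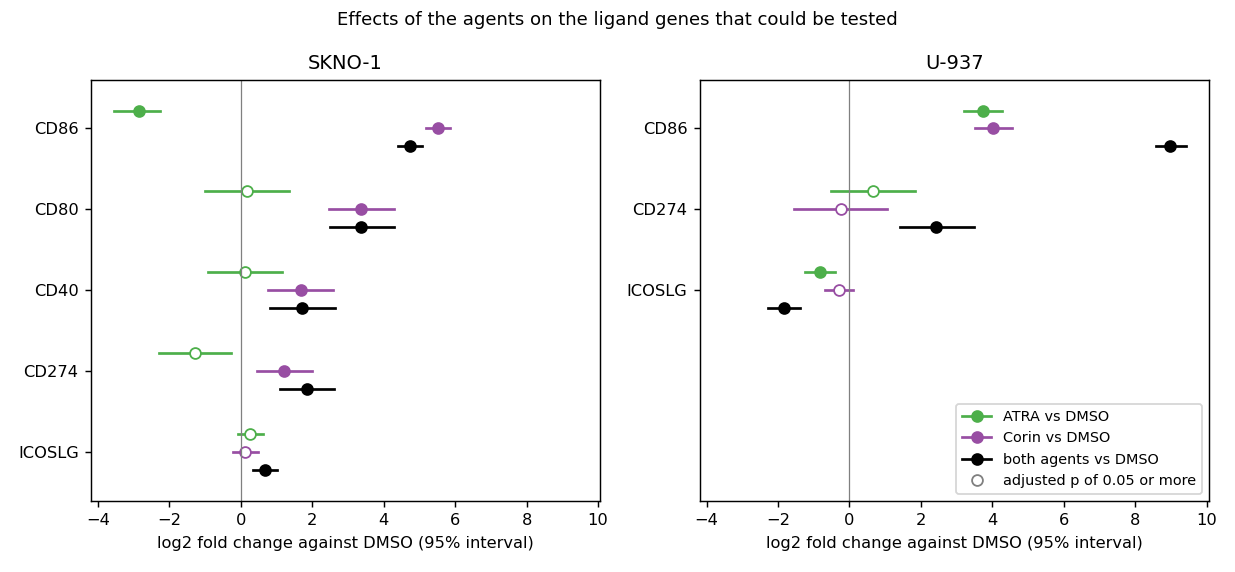
Log2 fold change against DMSO with its 95% interval for the ligand genes that passed the low-count filter, 5 in SKNO-1 (left) and 3 in U-937 (right); filled circles have an adjusted p under 0.05. CD86 with ATRA lies at -2.86 in SKNO-1 and at 3.72 in U-937.

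Counted together in SKNO-1, 1 of the 5 tested genes was called with ATRA (CD86, lower), where 3.79% of all tested genes were called lower. With Corin 4 were called, all higher, against 20.5% of all genes called higher, and with both agents 5 were called, all higher, against 24.7%. Both agents against ATRA gave 4 calls, all but ICOSLG and all higher (23.0% of all genes), and both against Corin gave 1, lower (5.6%). The departure from multiplied folds gave 1, higher (0.315%). The median log2 fold change of all tested genes lay between -0.01 and 0.05 in these comparisons. In U-937, 2 of the 3 tested genes were called with ATRA, 1 in each direction, where 41.8% of all genes were called. Corin gave 1, higher (8.55%). Both agents gave 3 calls against DMSO (65.3% of all genes called), 3 against ATRA (47.4%) and 3 against Corin (60.5%), in each case CD86 and CD274 higher and ICOSLG lower. The departure gave 1, higher (8.09%). With so few genes, and such shares over all genes, these counts are a description.

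The lines were compared directly in a fit of all 16 libraries, in which 5 genes were tested. With DMSO, 4 of the 5 were called lower in U-937 than in SKNO-1, where 33.1% of all genes were: CD86 by -1.59 (SE 0.318, adjusted p = 0.000210), CD274 by -1.21 (SE 0.463, adjusted p = 0.0265), CD80 with 19 counts over the SKNO-1 pair and 1 over the U-937 pair (adjusted p = 0.000807), and CD40 with 34 and 0 (adjusted p = 2.47e-05). The CD274 call was lost under 6 of the alternatives, among them DESeq2 (adjusted p = 0.110), scaling by library totals (-1.04, adjusted p = 0.0573) and leaving out SKNO-1 DMSO replicate 2 (-0.66, adjusted p = 0.338) or U-937 DMSO replicate 2 (-0.92, adjusted p = 0.162). ICOSLG differed by -0.24 (adjusted p = 0.254), by 0.07 with the copy added, and by -0.36 with the GC trend removed, where it was called (adjusted p = 0.0264). The CD80 and CD40 differences rest on 1 and 0 counts in U-937, and no fold is given.

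The effect of ATRA on CD86 differed between the lines by 6.62 (SE 0.449, adjusted p = 5.32e-09), with falls in SKNO-1 and rises in U-937. ATRA effects differed for 3 of the 5 tested genes, where 19.4% of all genes were called, and ICOSLG was the second, by -1.06 (SE 0.256, adjusted p = 0.00583). CD274 was the third, by 1.96 (SE 0.674, adjusted p = 0.0452), and its call was lost under 17 of 22 alternatives (adjusted p 0.0177 to 0.207 over all of them), with DESeq2 at 0.119. The Corin effect differed for CD86 alone among the 5 (7.49% of all genes called lower), by -1.5 (SE 0.387, adjusted p = 0.0151), a call lost without U-937 DMSO replicate 2 (-1.21, adjusted p = 0.184). CD274 differed by -1.46 (SE 0.660, adjusted p = 0.163) and ICOSLG by -0.42 (SE 0.254, adjusted p = 0.318). The effect of both agents differed for 2 (40.6% of all genes): CD86 by 4.29 (SE 0.330, adjusted p = 4.70e-09) and ICOSLG by -2.47 (SE 0.267, adjusted p = 4.41e-07). CD274 differed by 0.63 (SE 0.571, adjusted p = 0.414). The effects on CD80 and CD40 were called in none of these 3 comparisons (adjusted p 0.387 to 1 for CD80 and 0.452 to 1 for CD40), on 0 or 1 counts in each U-937 DMSO library.

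The other genes had orders of their own in CPM. CD80 and CD40 were highest in SKNO-1 with Corin and with both agents, which overlapped, and every U-937 group of CD40 lay below every SKNO-1 group. CD274 was highest in SKNO-1 with both agents, followed by U-937 with both and SKNO-1 with Corin, which overlapped. PDCD1LG2 was highest in U-937 with both agents, and no other neighbours in its order were separated. For ICOSLG the order began with SKNO-1 with both agents and ended with U-937 with both.

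Genes with the pattern most like CD86 were sought by Pearson correlation of log2(CPM + 1) over the 16 libraries after each line's mean was subtracted, among 11993 protein-coding genes averaging 1 CPM or more. They were TLR1 (r = 0.993), TLR6 (r = 0.992), both receptors for bacterial lipopeptides, and CD101 (r = 0.989), an immunoglobulin family surface protein of myeloid and T cells. The mean TLR1 level was 1.31, 0.281, 21.6 and 16.1 CPM in SKNO-1 (DMSO, ATRA, Corin, both), and 0.532, 3.99, 2.97 and 44.1 CPM in U-937. TLR1 thus fell to its lowest level with ATRA in SKNO-1 and reached its highest with both agents in U-937, as CD86 did. The closest to ICOSLG were CLBA1 (r = 0.958), DEAF1 (r = 0.956) and NAT8L (r = 0.954). The other 4 ligand genes averaged under 1 CPM and were not compared. These correlations describe 16 libraries in 8 groups that share their treatments and carry no test.

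Other B7 and butyrophilin-like ligands were described as a list of 12 genes, of which 7 were tested in SKNO-1 and 9 in U-937. With both agents 4 of 7 were called higher and 0 lower in SKNO-1 (24.7% of all genes called higher), with a list median of 0.55 against 0.05 over all genes. In U-937 6 of 9 were higher and 2 lower (33.1% and 32.2% of all genes), with a median of 1.18 against 0.03. VSIR, which encodes the checkpoint ligand VISTA, rose with ATRA in both lines. It went from 1.12 ± 0.583 to 31.4 ± 2.12 CPM in SKNO-1 (4.85, SE 0.259, adjusted p = 3.34e-05) and from 18.8 ± 1.26 to 201 ± 17.1 CPM in U-937 (3.42, SE 0.114, adjusted p = 7.03e-17). It rose with Corin as well, by 1.78 (SE 0.282) and 1.17 (SE 0.110). NCR3LG1 (B7-H6), a ligand for the natural killer receptor NKp30, fell in U-937 with ATRA (-0.74, SE 0.0989) and with both agents (-1.44, SE 0.101). BTN3A3, a butyrophilin, rose with Corin by 0.75 in SKNO-1 and 0.80 in U-937.

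Among 18 TNF superfamily and other costimulatory or inhibitory genes, 14 were tested in SKNO-1 and 15 in U-937. Most are ligands, but the list also holds the receptors HAVCR2 and SIRPA and the enzyme IDO1. With Corin 8 rose and 1 fell in SKNO-1 (median 0.68), where 20.5% of all genes were called higher and 17.3% lower, and 6 rose and 0 fell in U-937 (median 0.41), where 8.55% were called higher. With both agents 11 rose and 1 fell in SKNO-1 (median 1.32; 24.7% and 22% of all genes), and 12 rose and 2 fell in U-937 (median 0.76; 33.1% and 32.2%). CD48, a ligand of 2B4 on natural killer and T cells, rose with Corin in SKNO-1 from 1.09 ± 0.233 to 17.9 ± 0.557 CPM (4.04, SE 0.230, adjusted p = 1.81e-05) and in U-937 from 5.22 ± 0.120 to 14.7 ± 1.94 CPM (1.5, SE 0.185, adjusted p = 2.36e-06). ATRA lowered CD48 in U-937 to 0.885 ± 0.256 CPM (-2.55, SE 0.234, adjusted p = 4.84e-09). TNFSF4 (OX40 ligand) rose with Corin in SKNO-1 (2.19, SE 0.244) and with both agents in U-937 (2.75, SE 0.157). TNFSF9 (4-1BB ligand) rose with ATRA in U-937 (1.64, SE 0.136). TNFSF15, a ligand of death receptor DR3, had 2 counts over the U-937 DMSO pair and reached 30.6 ± 4.35 CPM with both agents. HAVCR2 (TIM-3) rose with Corin in both lines, by 2.08 (SE 0.258) and 1.10 (SE 0.190).

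**Figure D5:**
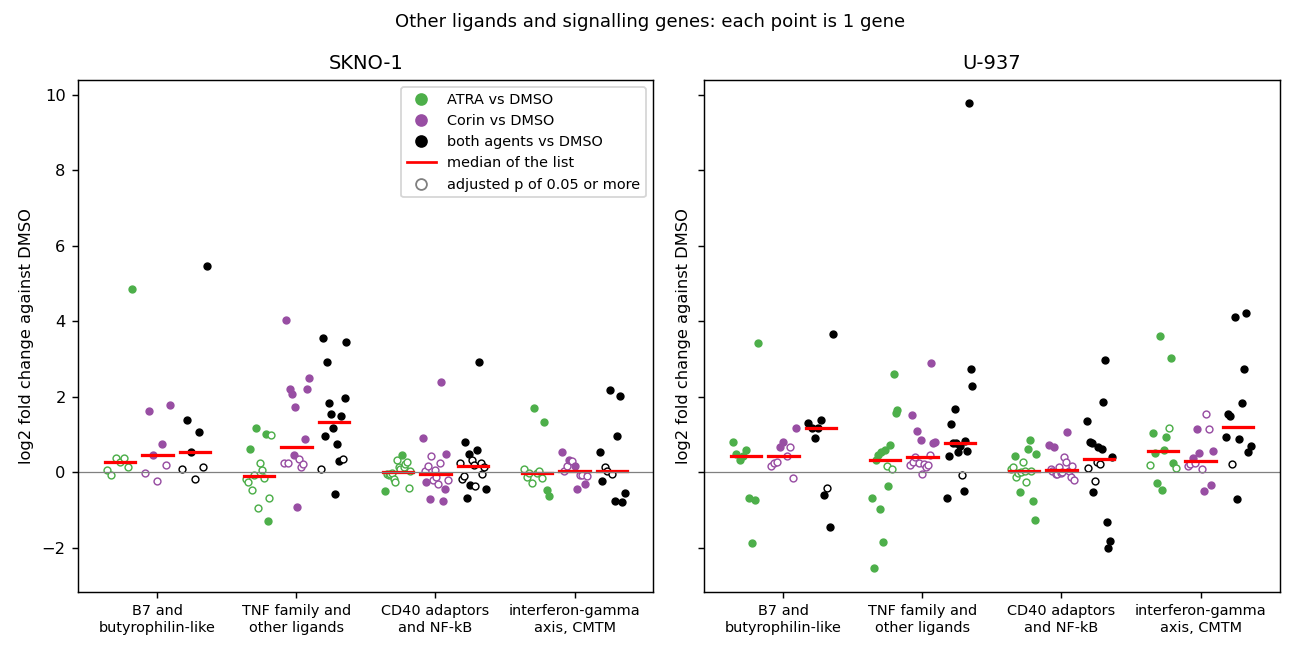
Log2 fold change against DMSO of each tested gene in 4 lists (other B7 and butyrophilin-like ligands; TNF family and other ligands; CD40 adaptors and NF-kB subunits; interferon-gamma axis with CMTM genes) in SKNO-1 and U-937; filled points have an adjusted p under 0.05 and red bars are list medians. With both agents the median of the second list is 1.32 in SKNO-1 and 0.76 in U-937.

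Of 16 CD40 adaptors and NF-kB subunits, all tested in both lines, both agents raised 4 and lowered 3 in SKNO-1 (median 0.16), near the 24.7% and 22% of all genes. They raised 8 and lowered 4 in U-937 (median 0.34), where 33.1% and 32.2% of all genes were called. TRAF1, an adaptor of TNF receptors, rose with both agents by 2.93 (SE 0.191) in SKNO-1 and 2.98 (SE 0.253) in U-937. TRAF3, a brake on noncanonical NF-kB signalling, fell with both in U-937 from 40.9 ± 1.56 to 10.2 ± 0.251 CPM (-2.0, SE 0.111, adjusted p = 1.37e-13). NFKB1 fell with Corin in SKNO-1 (-0.71, SE 0.0606).

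Another list of 12 genes held the interferon-gamma axis, whose signal is a known inducer of CD274, and the PD-L1 stabilisers CMTM4 and CMTM6. Of this list, 11 genes were tested in SKNO-1 and 12 in U-937. Both agents raised 4 and lowered 4 in SKNO-1 (median 0.05), where 24.7% and 22% of all genes were called, and raised 10 and lowered 1 in U-937 (median 1.21), where 33.1% and 32.2% were. IRF1, an IRF transcription factor, rose with ATRA in SKNO-1 from 23.9 ± 3.39 to 76.1 ± 2.15 CPM (1.71, SE 0.106, adjusted p = 6.98e-05) and in U-937 from 8.60 ± 0.220 to 105 ± 2.75 CPM (3.60, SE 0.109, adjusted p = 1.23e-17). With both agents it stood at 104 ± 1.61 and 148 ± 3.26 CPM. In SKNO-1, CD274 itself was lower in counts in both ATRA libraries than in either DMSO library, without a call. Its TPM values with ATRA lay between those of the DMSO libraries. JAK2 went opposite ways with both agents, by -0.75 (SE 0.117) in SKNO-1 and 1.84 (SE 0.103) in U-937. CMTM6, which stabilises the PD-L1 protein, rose in U-937 with ATRA (1.03, SE 0.107) and both agents (1.54, SE 0.108).

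Of the receptors that these ligands bind on T cells, CD28, CTLA4, ICOS, PDCD1 and CD40LG stayed at 0.0899 CPM or less in every library and were not tested. RGMB, a coreceptor of bone morphogenetic protein signalling that also binds PD-L2, was tested in SKNO-1 only and rose with Corin from 2.80 ± 0.309 to 26.9 ± 1.68 CPM (3.27, SE 0.122, adjusted p = 3.02e-06).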

How the data were processed

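The authors deposited estimated counts per gene and TPM values from RSEM on hg38 and, in tables of their own comparisons, log2 fold changes with adjusted p-values, per the file headers. Trimmomatic, STAR, RSEM, deepTools and DESeq2 are named in the submitters' processing notes, and the annotation release and the use of strand are not given in the sources used here. The kit was a stranded one for total RNA, per the labels' protocols. The labels name paired-end reads and the file names single-end reads, so whether both mates were counted is unknown. Estimated counts were rounded, filtered with filterByExpr, scaled by TMM and tested with edgeR 4.0.16 in R 4.3.3 on the 8 libraries of a line or, between lines, on all 16. Adjustment (Benjamini-Hochberg) ran over all 17479, 17717 or 19872 genes tested. Intervals of log2 fold changes come from edgeR's fit, and exact intervals of low-count ratios cover counting error only, since reads carry no molecular identifiers. Folds against a floor carry no interval. The table held 0 spike-in rows, so RNA per cell was not scaled. The fit was tested on simulated data with changes only in better-counted genes and no GC trend, which does not cover the ligand genes at few counts. The genes, lists and tests were chosen with earlier results of these data known. All 6 genes are named in every comparison, and up to 4 called genes of each list with a mean of at least 1 CPM and the largest changes.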

Additional observations from a re-analysis of the deposited data

Results flagged for a closer look

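A difference between the lines in the response to the same agent, tested directly as an interaction in edgeR's fit of all 16 libraries, was found for 6 effects, each given as U-937 minus SKNO-1 on the log2 scale. For CD86 the ATRA effect differed by 6.62 (adjusted p = 5.32e-09), with both ATRA libraries below both DMSO libraries in SKNO-1 and above them in U-937. For CD86 the Corin effect differed by -1.50 (adjusted p = 0.0151), a call lost without U-937 DMSO replicate 2 (adjusted p = 0.184), and the effect of both agents by 4.29 (adjusted p = 4.70e-09), with rises in both lines. For ICOSLG the ATRA effect differed by -1.06 (adjusted p = 0.00583) and the effect of both agents by -2.47 (adjusted p = 4.41e-07). For CD274 the ATRA effect differed by 1.96 (adjusted p = 0.0452), a call lost under 17 of 22 alternatives (DESeq2 0.119, replicate block 0.0582). The labels list GM-CSF in the medium of SKNO-1 and not in that of U-937, so medium and line cannot be told apart.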

How the results depend on the processing

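The calls of CD86 against DMSO in both lines, for ATRA, Corin and both agents, held under every alternative run: DESeq2, scaling by library totals, no low-count filter, only the libraries compared, the GC trend removed, the replicate block, and each library left out. Over all genes and comparisons, 999 of the alternative values kept direction and side of the threshold, 48 lost a call, 25 gained one and 24 changed sign, the last all without a call. Scaling by library totals moved the median of all genes by -0.12 in U-937 with both agents and by 0.16 in the DMSO comparison between lines. With 2 libraries a group, and CD80, CD40, CD274 and PDCD1LG2 at few counts, wide intervals limit what can be called.

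The number of ligand genes called changed by more than 1.5 times as follows, and the cause was not tested. The calls over all genes often moved as well and are given beside them. With only the libraries compared, Corin against DMSO in SKNO-1 gave 2 instead of 4, with 3817 instead of 6619 over all genes. Both agents against Corin in SKNO-1 gave 2 instead of 1 in each of 3 alternatives (DESeq2, the low-count filter dropped, and a fit of just the libraries compared), ICOSLG being the gene gained. Over all genes these alternatives gave 2566, 4238 and 7431 calls instead of 1822. The departure in SKNO-1 gave 2 instead of 1 with no filter, with 1445 instead of 81 over all genes. Both agents against DMSO in U-937 gave 5 instead of 3 with no filter, through CD80 and PDCD1LG2, with 11803 instead of 11570 over all genes. The departure in U-937 gave 2 instead of 1 with the GC trend removed (CD274) and with the ICOSLG copy added, an alternative added to these counts after seeing the data. Over all genes these gave 5050 and 4148 calls instead of 4147. The difference in Corin effect between lines gave 2 instead of 1 with the GC trend removed, with or without the replicate block (ICOSLG). Over all genes this gave 3949 calls with the block and 4182 without it, instead of 2538. Smaller changes were a gain of ICOSLG for both agents against ATRA in SKNO-1 (5 instead of 4) with DESeq2, library totals, no filter or a fit of just those libraries, a gain of ICOSLG in the DMSO difference with the GC trend removed, and a loss of CD274 with DESeq2 for Corin in SKNO-1 and for the DMSO and ATRA differences between lines.

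Same-numbered libraries of different groups deviated together only in part: correlations of their differences ran from -0.47 to 0.40 over 9123 genes, so the numbers were taken not to pair the libraries. With the replicate block, the departure of CD86 in SKNO-1 was 2.08 and not called (adjusted p = 0.0948), so that comparison gave 0 calls, and the CD274 difference in ATRA effect was not called (adjusted p = 0.0582); the block changed no other call. The difference in CD80 between both agents and Corin in SKNO-1 was -0.00060 with the block.

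With 1 library left out, the number of genes called ran from 1 to 3 for ATRA, 2 to 4 for Corin, 3 to 5 for both against ATRA, 0 to 2 for both against Corin and 0 to 2 for the departure in SKNO-1, from 1 to 2 for ATRA and 0 to 2 for the departure in U-937, and between lines from 3 to 4 for DMSO, 2 to 3 for the ATRA effect and 0 to 1 for the Corin effect. The other counts did not move. Where a group kept 1 library, it was assumed to vary like the others. Over all genes, ATRA in SKNO-1 gave 247 to 5337 calls under the alternatives (1181 as reported) and the departure in SKNO-1 gave 7 to 5729 (81 as reported).

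Values that changed sign were all small or rested on few counts. In SKNO-1, both against Corin gave -0.0087 for CD40 with library totals, and -0.024 with DESeq2 and -0.034 with library totals for CD80. The ICOSLG departure in SKNO-1 was -0.046 with the GC trend removed and -0.045 with the block as well, and its DMSO difference between lines 0.075 with the copy. With 1 library left out, ATRA in SKNO-1 ran from -0.47 to 0.91 for CD40 and from -0.83 to 0.68 for CD80, Corin from -0.060 to 0.34 for ICOSLG, both against Corin from -0.16 to 0.27 for CD40 and from -0.14 to 0.16 for CD80, and the departure from -0.86 to 0.51 for CD40 and from -0.65 to 0.85 for CD80. Corin in U-937 ran from -0.65 to 0.11 for CD274. Between lines, the ICOSLG DMSO difference ran from -0.48 to 0.037, the CD80 Corin difference from -1.25 to 1.95 and the CD80 difference for both agents from -0.29 to 2.92.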
